A study of Mus musculus with 6 samples.

Results

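The 32 member genes described here were chemokine ligands and chemokine receptors, chosen by symbol from the 19930 genes that the arrays measured in H10 and C8 cells. They were 22 ligands and 10 receptors. Each gene was represented by the feature annotated to its symbol with the highest mean log2 value over the 6 arrays, and no filter was applied, so that all 32 were tested. H10 cells are the RAW264.7-derived line that formed multinucleated osteoclasts, and C8 cells are the line from the same parent that did not fuse. RAW264.7 is a mouse macrophage-like line. Both lines carried a retroviral Lifeact-mEGFP construct and puromycin resistance, both were cloned by limiting dilution, and both were cultured for 2 days with sRANKL, the ligand that drives osteoclastogenesis (OCG), at 60 ng/mL. Each line was hybridised to 3 arrays, and untreated cells were not analysed here. Each line is 1 clone, so fusion capacity and other differences between the clones cannot be told apart. No source used here says whether replicate arrays hold RNA of different culture dishes. What the p-values measure is then only how these arrays scatter, possibly for technical reasons, and with so few arrays the precision is low.

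Chemokines are small secreted proteins that guide cells along a gradient, and their receptors are membrane proteins that signal through inhibitory G proteins. The CC, CXC and CX3C families are named for the spacing of their first cysteines. Ligands of CCR1 and CCR2 are known to act on monocytes and osteoclast precursors, CXCL9, CXCL10 and CXCL11 are induced by interferons and bind CXCR3, and CXCL1, CXCL2 and CXCL3 recruit neutrophils through CXCR2.

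RMA, run by the authors, gave the log2 values, with array medians of 7.69 to 7.72 in H10 and 7.65 to 7.74 in C8 cells. Of 9 macrophage markers, 7 lay above the table median of 7.70, which is not a test of expression. By limma 1 of these 9 rose in H10 cells and 0 fell (3 and 0 at an unadjusted p under 0.05). The summed log2 values of the 9 were 100.3 to 101.2 in H10 and 97.19 to 97.76 in C8 cells, and their part in the results was not tested. Of 7 osteoclast markers, 5 rose in H10 cells, and their summed log2 values were 76.79 to 78.36 in H10 and 66.78 to 69.2 in C8 cells, whose part in the results was not tested. Of 28 measured markers of other cell types, 4 lay above the table median, and by limma 0 rose and 0 fell (0 and 2 at an unadjusted p under 0.05). Of all 19930 genes, 1216 were higher and 1528 lower by limma at an unadjusted p under 0.05. The sum of these 28 log2 values ranged over 187.2 to 187.4 in H10 and 186.4 to 190.2 in C8 cells. The replicate 1 arrays of both lines stood apart from the others on the second principal component, which held 22.2% of the variance.

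The receptor genes Ccr3 and Ccr1 and the ligand genes Ccl2 and Cxcl11 were higher in H10 cells, and the receptor gene Cx3cr1 was lower. Their log2 fold changes, taken as H10 minus C8, were 1.65, 1.55, 1.55, 1.20 and -1.21. The other 27 members did not pass the test, which was limma, two-sided, at a Benjamini-Hochberg adjusted p under 0.05 over all 35545 features. These 5 genes were 15.6% of the members, and 2.9% of all genes passed the same test. The members were chosen with earlier results of these data known, so this share does not test whether chemokine genes differ more often. Among the 14 ligands and 13 receptors measured outside the member list, 0 rose and 0 fell. Only 1 of these ligands and 2 of these receptors had a mean above the table median, and dimmer genes passed less often, as given below. In single directions, 4 of 32 members were higher against 1.85% of all genes, and 1 of 32 was lower against 1.04%. The arrays of the lines did not overlap for 11 members, 7 higher and 4 lower in H10 cells, beside 20.4%, 7.74% and 12.7% of all genes. The median log2 fold change was 0.07 over the members and -0.03 over all genes. None of the members reached the fold of 5 that the paper's methods set, which 0.216% of all genes passed together with the test. Of the 18 members with a mean above the table median 4 passed, beside 4.61% of such genes, and of the 14 others 1 passed, Ccr3, beside 0.698% of such genes. In RNA of a whole culture, more cells that express a gene and more RNA in each cell cannot be told apart.

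**Figure D1:**
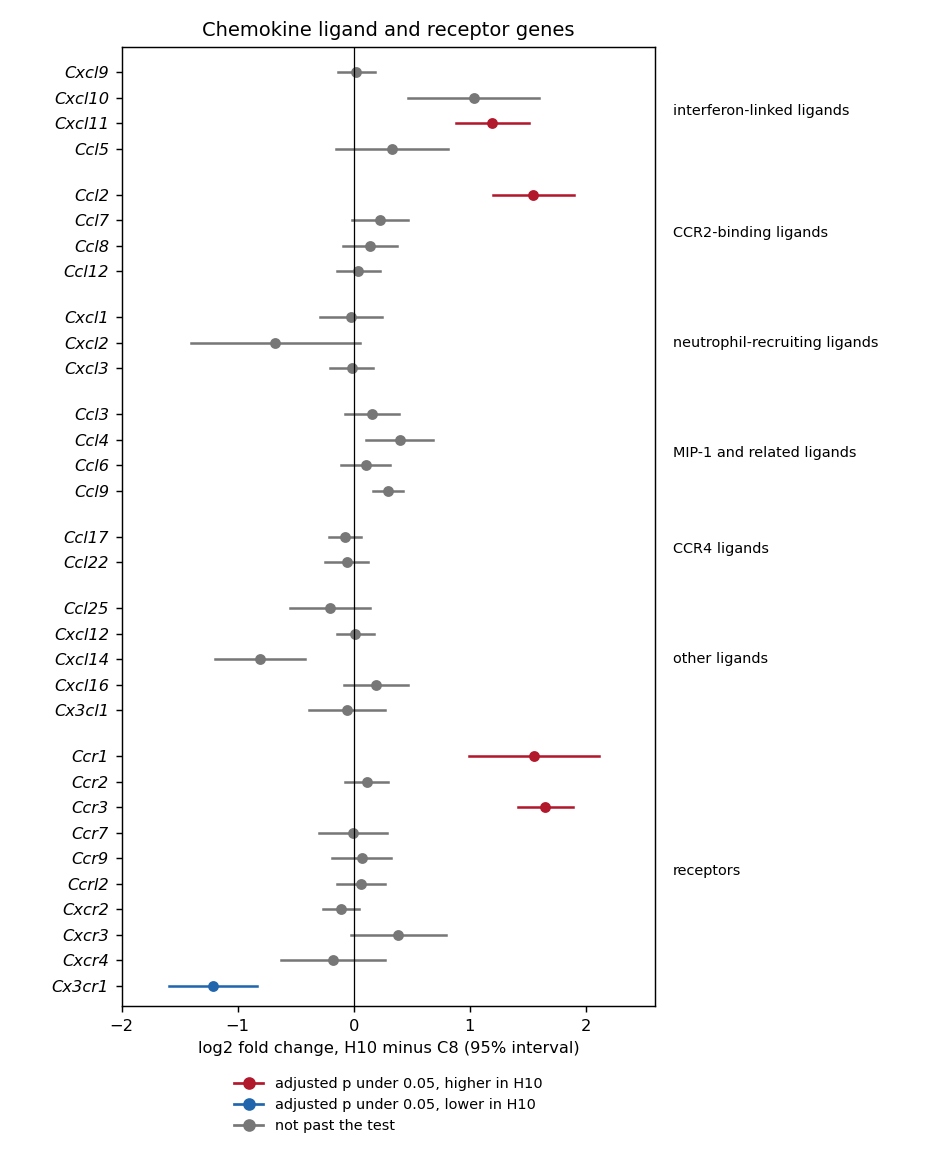
Log2 fold change of each of the 32 member genes, H10 minus C8, as a point with its 95% interval from limma (n = 3 arrays a line), grouped by role. Ccr3, Ccr1, Ccl2 and Cxcl11 lie to the right of 0 and Cx3cr1 to the left, and the 27 grey genes did not pass the test.

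Ccr3 encodes the receptor for eotaxins, best known on eosinophils. The log2 values of Ccr3 (feature 10590628) were 8.43, 8.11 and 8.28 in H10 cells, against 6.70, 6.53 and 6.63 in C8 cells. The lowest H10 array was above the highest C8 array by more than the range of either line. This was a log2 fold change of 1.65 (SE, the standard error, 0.10, adjusted p = 0.00119), a 3.15-fold difference, and Ccr3 ranked 80 among all genes by the size of its rise and 31 by p. The mean of Ccr3 in C8 cells, 6.62, lay below the median of each C8 array. How much of such a dim signal is background was not tested. Of 3 markers of mast cells and basophils, cells that can also carry CCR3, 0 lay above the table median, and by limma 0 rose and 0 fell (0 and 0 at an unadjusted p under 0.05). Ccl11, which encodes the CCR3 ligand eotaxin, had means of 7.40 in H10 and 7.49 in C8 cells (log2 fold change -0.10, adjusted p = 0.787).

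Ccr1 encodes a receptor for CCL3, CCL5 and CCL9 that is found on osteoclast precursors. Its log2 values (feature 10598004) were 9.49, 9.77 and 10.02 in H10 cells, against 8.36, 8.54 and 7.72 in C8 cells. The lines did not overlap, and C8 replicate 3 was the lowest of the 6 arrays. The lines differed by a log2 fold change of 1.55 (SE 0.23, adjusted p = 0.0274), a 2.94-fold difference. This call was lost without H10 replicate 2 (adjusted p = 0.106), H10 replicate 3 (0.113), C8 replicate 1 (0.072) or C8 replicate 2 (0.0539), and without both replicate 1 arrays (0.11), while the log2 fold change was 1.31 to 1.76, positive in each alternative fit.

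Cx3cr1 encodes the receptor for fractalkine, a marker of monocytes and of osteoclast precursors, and it was the only member that passed the test with a lower value in H10 cells. Its log2 values (feature 10597743) were 9.12, 9.70 and 9.18 in H10 cells, against 10.46, 10.61 and 10.57 in C8 cells. All C8 arrays lay above the highest H10 array, replicate 2. Its log2 fold change was -1.21 (SE 0.16, adjusted p = 0.0153), a 2.32-fold difference. The call was lost without H10 replicate 3 (adjusted p = 0.0759), C8 replicate 2 (0.076) or C8 replicate 3 (0.079), and without the replicate 1 arrays of both lines (0.102), a choice made after seeing the data. Its ligand gene Cx3cl1 averaged 7.61 in H10 and 7.67 in C8 cells and differed by -0.06 on the log2 scale (95% interval -0.39 to 0.27, adjusted p = 0.942).

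The other 7 receptors did not pass the test. Cxcr3, the receptor for the interferon-induced CXC ligands, had log2 values of 9.88, 9.83 and 9.73 in H10 cells, against 9.83, 9.20 and 9.25 in C8 cells. The lines overlapped through C8 replicate 1, which lay at the level of the H10 arrays. The log2 fold change of Cxcr3 was 0.39 (SE 0.17, adjusted p = 0.451), and without C8 replicate 1 it was 0.59 with an adjusted p = 0.026. In the other fits the adjusted p of Cxcr3 stayed above 0.05, up to 0.697. Cxcr4, the receptor for CXCL12 that keeps blood cell precursors in the marrow, had means of 8.26 in H10 and 8.44 in C8 cells (log2 fold change -0.18, 95% interval -0.63 to 0.27, adjusted p = 0.83). Ccr7, a receptor that guides mature dendritic cells and lymphocytes to lymph nodes, averaged 7.73 in H10 and 7.74 in C8 cells (log2 fold change -0.0067, adjusted p = 0.992). Ccr2, the receptor for CCL2, had means of 6.25 in H10 and 6.14 in C8 cells, with a log2 fold change of 0.11 (95% interval -0.07 to 0.30, adjusted p = 0.697). The feature of Ccr2 lay under the median of every array in both lines while its ligand Ccl2 differed between them. The gut-homing receptor Ccr9, the atypical receptor Ccrl2, which binds chemerin, and the neutrophil receptor Cxcr2 also lay below the table median in both lines, with log2 fold changes of 0.07, 0.07 and -0.11.

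Ccr1 and Ccr3 lie in a row of chemokine receptor genes on mouse chromosome 9, and they were the 2 genes of this row that passed the test. In the order of GRCm38.p6 the measured genes of the row are Ccr9, Cxcr6, Xcr1, Ccr1, Ccr1l1, Ccr3 and Ccr2. Ccr1l1, which lies between Ccr1 and Ccr3, had means of 6.42 in H10 and 6.46 in C8 cells (log2 fold change -0.04, adjusted p = 0.914). Of the 10 nearest genes of Ccr1 that were brighter than the table median, by limma 0 rose and 0 fell, and their median log2 fold change was 0.01. Ccr3, with a mean of 7.45 over all arrays, lay below that median and was not among them. All 10 lay on the same side of Ccr1, since no measured gene brighter than the table median follows it. Of the 20 such neighbours of Cx3cr1, on the same chromosome, 0 rose and 0 fell, with a median of -0.05. Among the 10 such neighbours of Ccr3, Ccr1 itself rose. Of the 20 such neighbours of Ccl2, 2 rose and 0 fell, with log2 fold changes up to 2.32 and a median of -0.02, and of the 20 of Cxcl11, 1 rose and 0 fell, with values up to 1.12 and a median of 0.045. The probe sequences were not used here, and whether probes also read a related gene was not tested.

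**Figure D2:**
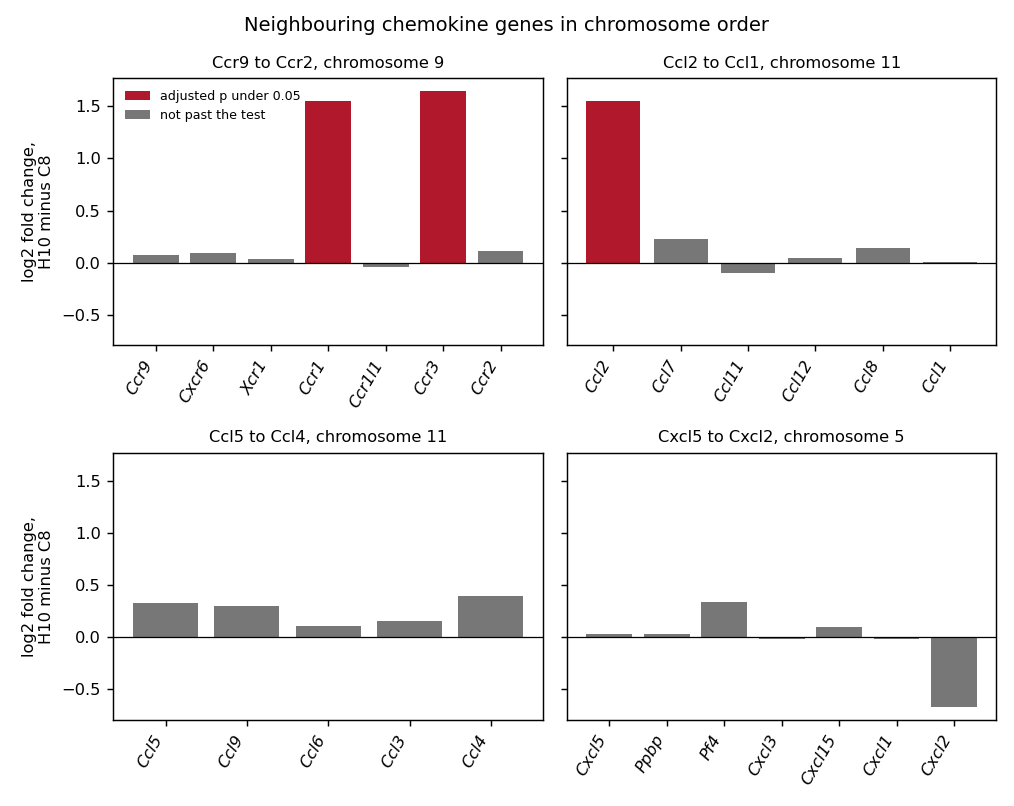
Log2 fold change, H10 minus C8, of the measured genes of 4 rows of neighbouring chemokine genes in chromosome order, with red bars for genes past the test and grey bars for the others. Ccr3 and Ccr1 stand out at 1.65 and 1.55 among receptors, Ccl2 at 1.55 in its row, and no gene of the lower rows passed.

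The stretches before the annotated starts of the receptors past the test are printed with that of Cxcl10, to show which short patterns of inducible factors they hold. Of the 32 genes, 25 had an entry in the RefSeq promoter table (GRCm38.p6), and Ccl2, Ccl4, Ccl5, Ccl7, Cxcl11, Cxcl16 and Ccr7 had none. The patterns searched on both strands of the 250 bases before each start were GGNNNTTCC, which is like the sites of NF-κB, GAAANNGAA, from the response element of interferon-induced genes, and TGANTCA, an AP-1 site with any middle base. They were chosen after the values had been seen. Capitals mark their matches, and neighbouring or overlapping matches run together.
Ccr3 (chr9:124021721-124021970, plus strand): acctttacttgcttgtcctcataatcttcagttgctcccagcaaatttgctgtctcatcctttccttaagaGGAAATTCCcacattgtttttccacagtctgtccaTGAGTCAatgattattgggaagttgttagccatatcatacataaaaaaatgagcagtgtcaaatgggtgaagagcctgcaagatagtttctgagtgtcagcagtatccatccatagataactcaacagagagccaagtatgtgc
Ccr1 (chr9:123968693-123968942, minus strand): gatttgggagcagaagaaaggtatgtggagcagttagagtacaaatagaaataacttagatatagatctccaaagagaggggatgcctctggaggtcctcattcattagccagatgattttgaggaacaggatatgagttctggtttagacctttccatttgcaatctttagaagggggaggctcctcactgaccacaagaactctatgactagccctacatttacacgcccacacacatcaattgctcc
Cx3cr1 (chr9:120068297-120068546, minus strand): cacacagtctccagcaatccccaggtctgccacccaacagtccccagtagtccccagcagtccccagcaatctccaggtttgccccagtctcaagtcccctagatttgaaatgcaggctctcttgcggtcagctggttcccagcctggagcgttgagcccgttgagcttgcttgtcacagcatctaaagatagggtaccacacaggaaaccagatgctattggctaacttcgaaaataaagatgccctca
Cxcl10 (chr5:92348890-92349139, minus strand): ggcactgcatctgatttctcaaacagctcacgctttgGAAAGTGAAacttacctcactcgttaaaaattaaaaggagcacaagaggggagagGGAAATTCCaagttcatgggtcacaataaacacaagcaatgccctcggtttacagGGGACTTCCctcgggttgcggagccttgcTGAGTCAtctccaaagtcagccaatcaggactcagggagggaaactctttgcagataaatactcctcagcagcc
The Ccr3 stretch held a match to the NF-κB pattern and one to the AP-1 pattern, the Cxcl10 stretch held matches to all 3 patterns, and those of Ccr1 and Cx3cr1 held none. Of all 32851 stretches in the table, 15.7% held the NF-κB pattern, 7.13% the interferon pattern and 6.75% the AP-1 pattern. Among the 25 member genes with an entry, 10, 5 and 3 held them. These genes had 28 entries, and a gene counted when any of its entries matched, whereas the shares are per stretch. The interferon pattern was in Ccl3, Ccr2, Cxcl9, Cxcl10 and Cxcl14, none of which passed the test. Ccl2 and Cxcl11, which passed, had no entry and could not be searched. A match describes letters only and is not evidence of a site in use.

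Of the ligands that bind CCR2, Ccl2 alone passed the test. Ccl2 encodes MCP-1, the chief attractant of monocytes. Its log2 values (feature 10379511) were 10.14, 9.83 and 9.58 in H10 cells, against 8.41, 8.18 and 8.31 in C8 cells. The lines were far apart, and H10 replicate 1 was the highest array. Ccl2 had a log2 fold change of 1.55 (SE 0.15, adjusted p = 0.00528), a 2.93-fold difference, and the adjusted p was 0.00127 to 0.037 over all settings run for it.

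The other CCR2 ligands are neighbours of Ccl2 on chromosome 11. Ccl7, which encodes MCP-3, had log2 values of 7.95, 7.73 and 7.85 in H10 cells, against 7.46, 7.76 and 7.63 in C8 cells, which overlapped (log2 fold change 0.23, adjusted p = 0.45). Ccl8, which encodes MCP-2, had 6.10, 5.95 and 5.93 in H10 cells, against 5.69, 6.00 and 5.87 in C8 cells (0.14, adjusted p = 0.709). Ccl12, which encodes the mouse ligand MCP-5, had 6.17, 6.14 and 6.10 in H10 cells, against 6.07, 5.99 and 6.23 in C8 cells (0.04, adjusted p = 0.93). Ccl8 and Ccl12 lay below the lower quartile of each array in both lines. The 95% interval of the log2 fold change was -0.01 to 0.46 for Ccl7, -0.09 to 0.37 for Ccl8 and -0.15 to 0.23 for Ccl12.

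Among the interferon-linked ligands, Cxcl11 rose. Cxcl11 encodes I-TAC, a ligand of CXCR3. Its log2 values (feature 10531420) were 9.77, 9.48 and 9.26 in H10 cells, against 8.36, 8.24 and 8.32 in C8 cells. The C8 arrays were close together and the H10 arrays more spread, with replicate 1 the highest. For Cxcl11 the log2 fold change was 1.20 (SE 0.13, adjusted p = 0.00848), a 2.29-fold difference, and the adjusted p reached 0.0497 when 1 array was left out.

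Cxcl10, which encodes IP-10, another CXCR3 ligand, had log2 values of 10.35, 10.19 and 9.70 in H10 cells, against 9.46, 8.71 and 8.96 in C8 cells. The arrays did not overlap, but H10 replicate 3 and C8 replicate 1 lay near each other. With a log2 fold change of 1.04 (SE 0.24, 95% interval 0.47 to 1.60), Cxcl10 did not pass the test (adjusted p = 0.106). Its adjusted p was 0.042 once dim features had been left out of the adjustment, and in the other fits it stayed above 0.05, up to 0.301. Cxcl9, the third CXCR3 ligand, had 7.51, 7.50 and 7.44 in H10 cells, against 7.37, 7.49 and 7.52 in C8 cells. These values lay below the table median, and the log2 fold change was 0.02 (95% interval -0.14 to 0.18, adjusted p = 0.954). Ccl5, which encodes RANTES, a ligand of CCR1 and CCR3, had 9.88, 10.71 and 10.45 in H10 cells, against 9.93, 10.02 and 10.10 in C8 cells. H10 replicate 1 was below all C8 arrays and the other H10 arrays were above them. The log2 fold change of Ccl5 was 0.33 (adjusted p = 0.649), and without H10 replicate 1 it was 0.56.

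**Figure D3:**
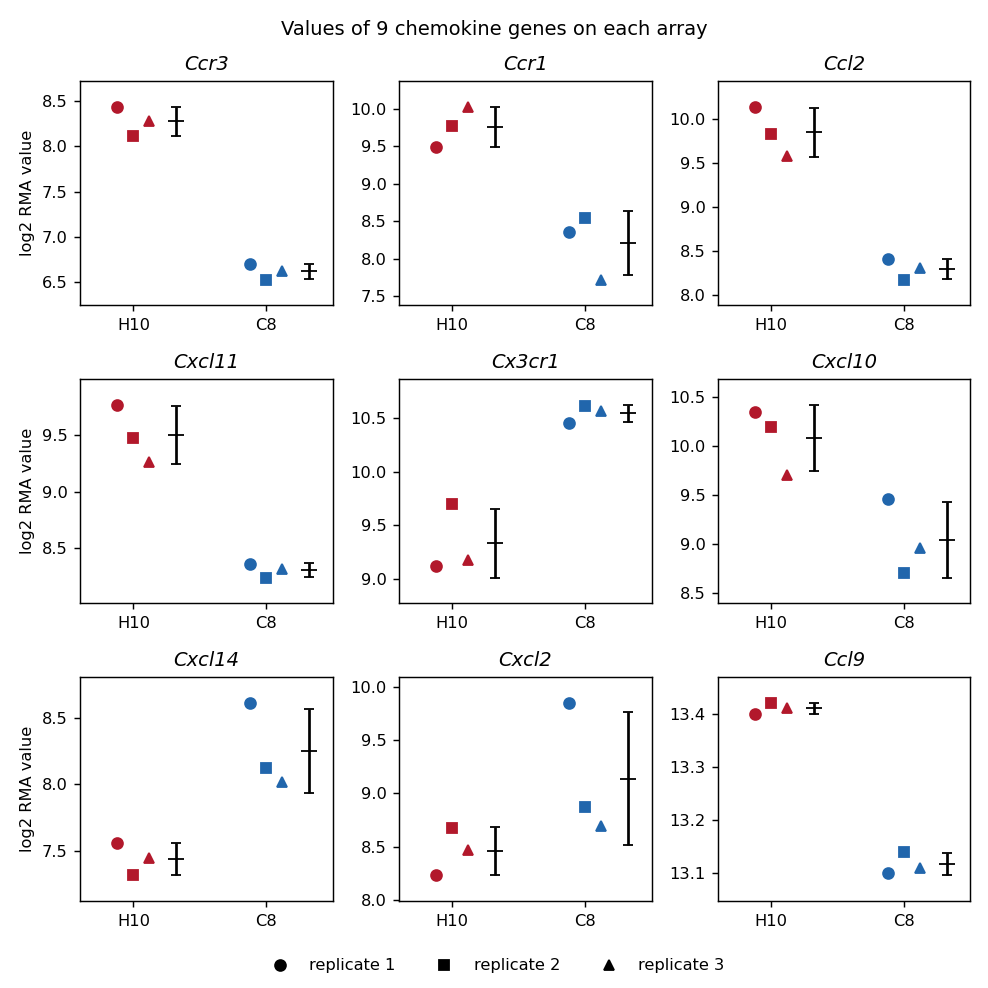
Log2 RMA value of 9 member genes on each array of H10 and C8 cells, with black marks for each line's mean and SD (n = 3) and a value axis of its own in each panel. The panels show only members whose lines do not overlap, and of these Cxcl10, Cxcl14, Cxcl2 and Ccl9 did not pass the test. C8 replicate 1 lies apart from the other C8 arrays for Cxcl2, Cxcl14 and Cxcl10.

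None of the 3 neutrophil-recruiting ligands passed the test in either direction by limma (0 higher and 0 lower at an unadjusted p under 0.05). Cxcl2, which encodes MIP-2, had log2 values of 8.23, 8.68 and 8.47 in H10 cells, against 9.85, 8.87 and 8.69 in C8 cells. The C8 arrays were all higher, but the closest pair almost touched, and C8 replicate 1 stood well above the others. Cxcl2 differed by -0.68 on the log2 scale (SE 0.30, adjusted p = 0.461), and by -0.32 without C8 replicate 1. Cxcl1, which encodes KC, had 8.06, 7.93 and 7.89 in H10 cells, against 7.88, 7.86 and 8.21 in C8 cells, with a log2 fold change of -0.02 (95% interval -0.29 to 0.24, adjusted p = 0.974). Cxcl3 had 6.02, 6.13 and 5.92 in H10 cells, against 5.98, 6.02 and 6.12 in C8 cells, with a log2 fold change of -0.02 (95% interval -0.20 to 0.17, adjusted p = 0.974). For Cxcl1 and Cxcl3 the lines overlapped almost fully.

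The promoters of these 3 ligands share with Ccr3 and Cxcl10 the 9 bases GGAATTTCC, a form of the NF-κB pattern. On either strand, 0.286% of the stretches in the table held it. This narrower form was not one of the 3 patterns listed above, and its share is not a test of these genes. The stretches of the ligands around the match are shown with these bases in capitals.
Cxcl1 (chr5:90891150-90891209, plus strand): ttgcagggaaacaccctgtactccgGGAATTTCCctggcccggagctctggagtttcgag
Cxcl2 (chr5:90903778-90903837, plus strand): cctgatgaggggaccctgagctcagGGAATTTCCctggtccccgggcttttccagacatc
Cxcl3 (chr5:90786004-90786063, plus strand): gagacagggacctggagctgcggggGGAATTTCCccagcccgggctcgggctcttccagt
Ccr3 and Cxcl10, printed above, hold the pattern on the opposite strand, read as GGAAATTCC. The match began 70 bases before the start of Cxcl1, 96 before that of Cxcl2, 72 before that of Cxcl3, 179 before that of Ccr3 and 158 before that of Cxcl10. Of these 5 genes, Ccr3 rose in H10 cells and the ligands did not pass the test.

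None of the 4 genes in the group of MIP-1 and related ligands passed the test by limma (2 higher and 0 lower at an unadjusted p under 0.05). At that unadjusted level, 1216 of all 19930 genes were higher and 1528 lower. Ccl9, a CCR1 ligand that osteoclasts make in response to RANKL, had log2 values of 13.40, 13.42 and 13.41 in H10 cells, against 13.10, 13.14 and 13.11 in C8 cells. The arrays of each line lay close together, and the gap between the lines was wider than either range. Ccl9 differed by a log2 fold change of 0.29 (SE 0.05, adjusted p = 0.0547), a 1.23-fold difference. It passed with an intensity trend and a robust prior (adjusted p = 0.00477) and with a second quantile normalization (0.0373). It also passed with the filter on dim features (0.0195) and with the adjustment over 1 feature per gene (0.0397). Ccl9 did not pass in the other fits, among them each fit with 1 array left out (adjusted p = 0.0887 to 0.236). Ccl4, which encodes MIP-1β, an attractant of monocytes and T cells, had 8.43, 8.90 and 8.71 in H10 cells, against 8.33, 8.25 and 8.27 in C8 cells. The H10 arrays were all higher, and the log2 fold change was 0.40 (SE 0.12, adjusted p = 0.231). Ccl3, which encodes MIP-1α, a ligand of CCR1, averaged 14.07 ± 0.14 in H10 and 13.91 ± 0.11 in C8 cells (SD, n = 3), and its log2 fold change was 0.16 (adjusted p = 0.654). Whether values this near the top of the table's range are compressed was not tested. Ccl6, another CC ligand, averaged 7.03 in H10 and 6.93 in C8 cells, below the table median (log2 fold change 0.10, adjusted p = 0.778).

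The CCR4 ligands and the other ligands did not pass the test. Ccl17 and Ccl22, which attract T cells through CCR4, lay below the table median in both lines, with log2 fold changes of -0.08 (95% interval -0.21 to 0.06) and -0.06 (95% interval -0.25 to 0.13). Cxcl14, a chemokine of many epithelia, had log2 values of 7.56, 7.32 and 7.45 in H10 cells, against 8.61, 8.12 and 8.02 in C8 cells. All C8 arrays were higher, C8 replicate 1 the most. The log2 fold change of Cxcl14 was -0.81 (SE 0.16, 95% interval -1.19 to -0.42, adjusted p = 0.0704). Its adjusted p was 0.0456 without C8 replicate 1 and 0.0258 with the filter on dim features. That filter kept Cxcl14 only through its C8 arrays, since every H10 value lay below the table median, so the filtered value lends it no support. In the other fits the adjusted p of Cxcl14 stayed above 0.05, up to 0.233. Cxcl16, a membrane-bound chemokine and scavenger receptor, averaged 9.88 ± 0.14 in H10 and 9.68 ± 0.17 in C8 cells (SD, n = 3), with a log2 fold change of 0.19 (adjusted p = 0.632). Ccl25, the ligand of CCR9, averaged 9.06 in H10 and 9.26 in C8 cells (log2 fold change -0.20, adjusted p = 0.713). Cxcl12, the stromal ligand of CXCR4, lay below the table median in both lines (log2 fold change 0.01, 95% interval -0.15 to 0.17).

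The calls of the members differed in how far they rested on single arrays. Ccr3, Ccl2 and Cxcl11 passed the test with each array left out, with adjusted p up to 0.0129, 0.037 and 0.0497 over all settings run. Ccr1 lost the call in 4 of these 6 fits and Cx3cr1 in 3 of 6. The direction of these 5 genes was the same in all of the fits.

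**Figure D4:**
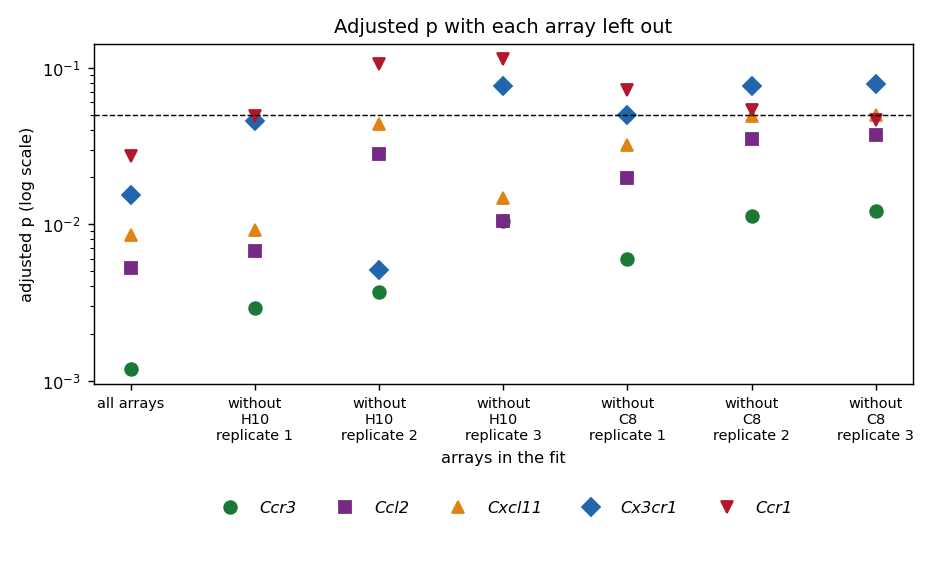
Adjusted p from limma, on a log scale, of the 5 members past the test with all arrays and with each array left out, and a dashed line at 0.05. Ccr3, Ccl2 and Cxcl11 stay below the line in each fit, while Ccr1 crosses it in 4 fits and Cx3cr1 in 3.

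Of 60 listed chemokine genes outside the member list and genes of receptor signalling and ligand shedding, 53 were measured by a feature with 1 symbol, of which 2 rose, 1 fell and 50 did not pass, with a median log2 fold change of -0.04. This list too was chosen with earlier results of these data known, and the 3 genes past the test were 5.66% of those measured. All 3 came from the 26 signalling and shedding genes, of which they were 11.5%, beside 2.9% of all genes. Of the 14 ligands and 13 receptors among them, by limma 0 rose and 0 fell (1 and 2 at an unadjusted p under 0.05, beside 1216 and 1528 of all 19930 genes). Only 1 of these ligands and 2 of these receptors had a mean above the table median. The platelet chemokine Pf4 had log2 values of 6.78, 6.76 and 6.80 in H10 cells, against 6.33, 6.53 and 6.46 in C8 cells. All lay below the table median (log2 fold change 0.34, adjusted p = 0.0794). Pf4 passed with a second quantile normalization (adjusted p = 0.0482) and not in the other fits, where its adjusted p was up to 0.293. Ppbp, another platelet chemokine, and Ackr3, the scavenging receptor for CXCL12, differed by 0.03 and -0.10 on the log2 scale, with adjusted p = 0.955 and 0.713.

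Both genes that rose in this list encode regulators of G protein signalling, which switch off G proteins after a receptor has activated them. Rgs1, known to damp chemokine receptor signals in leukocytes, had log2 values of 10.38, 10.65 and 10.31 in H10 cells, against 8.84, 8.65 and 8.56 in C8 cells. The lines were separated by more than the range of either, and Rgs1 differed by 1.76 on the log2 scale (SE 0.12, adjusted p = 0.00153), a 3.40-fold difference. Rgs2, which acts on the Gq class, had 10.06, 10.31 and 10.12 in H10 cells, against 9.13, 8.75 and 8.48 in C8 cells. Its log2 fold change was 1.38 (SE 0.17, adjusted p = 0.0122), and the call was lost without H10 replicate 2 (adjusted p = 0.0559), H10 replicate 3 (0.0621) or C8 replicate 2 (0.0637). The other regulators of this family in the list did not pass. Rgs16 went the other way, with all H10 arrays below the C8 arrays (log2 fold change -0.73, adjusted p = 0.202). Rgs14, Rgs18 and Rgs19 differed by -0.05, 0.03 and -0.01 on the log2 scale.

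The gene that fell was Adam10, a membrane protease that sheds CX3CL1 and CXCL16 from the cell surface. Its log2 values were 11.42, 11.80 and 11.73 in H10 cells, against 12.31, 12.85 and 12.85 in C8 cells, which did not overlap. Adam10 differed by -1.02 on the log2 scale (SE 0.18, adjusted p = 0.0433), and the adjusted p was above 0.05, up to 0.152, when any 1 of the 3 H10 arrays, C8 replicate 2 or C8 replicate 3 was left out. Of the 20 nearest genes of Adam10 on chromosome 9 that were brighter than the table median, 11 fell and 0 rose, with a median log2 fold change of -0.41. Adam17, the related protease that also sheds CX3CL1, averaged 12.07 in H10 and 12.12 in C8 cells (log2 fold change -0.05, adjusted p = 0.901).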

How the data were processed

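RNA of H10 and C8 cells was hybridised to Affymetrix Mouse Gene 1.0 ST arrays. The authors normalized the intensities with RMA, and the deposited log2 values were used as given. Affymetrix Expression Console is named in the submitters' processing notes. For its version and for a genome build, not given in the sources used here, no value is stated. The table held 35545 features with 0 missing values, of which 21781 had 1 gene symbol, 1621 several and 12143 none. Genes were represented only by features with 1 symbol, by the one with the highest mean.

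H10 and C8 arrays were compared by limma 3.58.1, run in R 4.3.3 (lmFit and eBayes, after the paper's methods, with 4 residual and 2.57 prior degrees of freedom). Intervals are 95% intervals of the moderated fit. No set test was run. The fit was checked on simulated data. Every member is named, with all 6 values for those past the test and for the interferon-linked, CCR2-binding and neutrophil-recruiting ligands. Of the other 60 listed genes, those past the test with Ackr3, Pf4 and Ppbp are named. Ccl11, Ccr1l1, Adam17, Rgs14, Rgs16, Rgs18, Rgs19 and the members given for their spread were picked with their values in view. The members and lists were chosen with earlier results of these data known. Chromosome order came from the RefSeq gene table of GRCm38.p6, and neighbours are up to 10 genes on each side. The alternatives were leaving out each array, a replicate block, quantile normalization of the table once more, centring of array medians, removal of dim features (those over the table median in fewer than 3 arrays), averaging of a gene's features, trend and robust options in eBayes, adjustment over only the features that stand for genes, an adjusted p under 0.01, a fold of 5 and folds of mean linear values. The fit without both replicate 1 arrays was added after seeing the data. Matplotlib 3.10.9 (Python 3.11.15) drew the plots.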

Additional observations from a re-analysis of the deposited data

How the results depend on the processing

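With all arrays, 4 members were higher and 1 was lower in H10 cells. With 1 array left out, 3 to 4 were higher and 0 to 2 lower, and among the other chemokine system genes 1 to 2 were higher and 0 to 1 lower. In the fit with a replicate block, 3 members were higher and 1 lower, without Ccr1 (adjusted p = 0.0908), and 2 of the other genes were lower. Arrays with the same number were not taken as pairs, since no source pairs them and the correlation of their deviations from the line means was 0.17, -0.0043 and -0.12 for replicates 1, 2 and 3, although the replicate 1 arrays of both lines lay to the same side on the second principal component. With dim features filtered out, so that fewer were tested, 6 members were higher and 2 lower. Among these, Ccr3 was kept by the filter only through its H10 arrays and Cxcl14 only through its C8 arrays, the line where each was higher. Their passing in this fit is therefore no support. At an adjusted p under 0.01, 3 members were higher and 0 lower, and 1 of the other genes was higher and 0 lower. With a fold of 5 or more, 0 members and 0 of the other genes passed in either direction by limma. Without both replicate 1 arrays, 3 members were higher and 0 lower.

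The signs of differences near 0 turned in some fits, none past the test in any of them. With 1 array left out, the log2 fold change was -0.033 to 0.047 for Cxcl12, -0.14 to 0.085 for Ccr7, -0.085 to 0.09 for Cxcl1, -0.07 to 0.035 for Cxcl3, -0.192 to 0.033 for Cx3cl1, -0.022 to 0.053 for Cxcl9, -0.043 to 0.142 for Ccr9, -0.058 to 0.077 for Ppbp and -0.013 to 0.107 for Ccl12. Without both replicate 1 arrays, it was -0.035 for Cxcl9, -0.05 for Cxcl12, -0.04 for Ccr9 and -0.07 for Ppbp. The cause was not tested. Dim features limit what can be seen for the 14 members below the table median, since background was not measured.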

Other observations

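Within the H10 arrays, replicate 1 held different places for different genes that interferons induce. It was the highest H10 array for Cxcl10 and Cxcl11, at log2 values of 10.35 and 9.77, and also for Ccl2 at 10.14. It was the lowest for Ccl5, at 9.88 beside 10.71 and 10.45, for Irf7, a transcription factor of the interferon response, at 12.03 beside 12.72 and 12.59, and for Usp18, which removes ISG15, at 12.59 beside 13.36 and 13.26. On the C8 arrays, Cxcl10 was highest in replicate 1, at 9.46 beside 8.71 and 8.96, and Usp18 was lowest there, at 9.10 beside 9.19 and 9.55, while Irf7 was in the middle there, at 8.81 beside 8.55 and 8.85. No test was run on these places, which were noticed in the data. The second feature annotated to Ccl25 averaged 8.73 in H10 and 8.85 in C8 cells, in the same direction as the feature that stood for the gene.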
